A study of Mus musculus with 6 samples.

Results

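The genes described here are 39 enzymes, regulators and 1 receptor of sphingolipid and ganglioside metabolism, out of 55357 genes in the count files. They were chosen by symbol for what their products do, from the first step of ceramide synthesis to the sialyltransferases that build gangliosides, with earlier results of these data known. All 39 had at least 6 reads in at least 1 library and were among the 21876 genes tested.

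RNA was sequenced from 6 libraries of wild-type mouse primary cultures of cortical and hippocampal neurons, which the study's methods describe as prepared from E18 C57BL/6N embryos. In the shCtrl group, 3 libraries came from cultures transduced at day in vitro 4 (DIV4) with a lentivirus made from the pLVTHM plasmid that expresses a scrambled short hairpin RNA (shRNA). In the shPla2g4e group, 3 libraries came from cultures given at DIV4 the same lentiviral backbone with the sh2 hairpin against Pla2g4e, a phospholipase A2 family enzyme that forms N-acyl phosphatidylethanolamines. All cultures were collected at DIV14, and the same amount of virus was used in both groups. A single hairpin was compared with a single control hairpin, and no source used here says that the hairpin was restricted to neurons or that the 3 libraries of a group came from separate preparations, so that p-values measure only the spread between these libraries. The question is which sphingolipid genes changed when Pla2g4e was lowered in maturing neurons. The values are levels and differences of mRNA, and in a culture of mixed cells fewer cells of a type and less RNA per cell cannot be told apart.

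Sphingolipids are built on a sphingoid base that serine palmitoyltransferase makes from serine and palmitoyl-CoA, and that ceramide synthases acylate to ceramide. Ceramide is then turned into sphingomyelin, into glucosylceramide and the sialic acid-bearing gangliosides that are abundant on neurons, or into galactosylceramide, a lipid of myelin. Sphingomyelinases and ceramidases run these steps backwards, and the sphingosine they release is phosphorylated to sphingosine 1-phosphate, a signalling lipid with its own receptors.

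The sequences of the hairpin are shown first because the 7 bases of its seed occur in some of the mRNAs described below. The target and guide were copied from the study's reagent list. Capitals mark in the guide its seed, bases 2 to 8, and in the target and the mRNAs the 7 bases that pair with it.

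sh2 target: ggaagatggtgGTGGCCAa
sh2 guide: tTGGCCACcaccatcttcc
Sptlc2 3′ UTR, first site: agctactgaagGTGGCCAccttcactcca
Sptlc2 3′ UTR, other site: tgtgactccccGTGGCCAaggacctccta
Smpd3 3′ UTR: tgcaagctcagGTGGCCAgccaacagcca
Cers4 3′ UTR: ttctttcctgtGTGGCCAtgtgattgaaa

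The target lies in the coding sequence of Pla2g4e, on the minus strand at chr2:120182753-120182771 of GRCm38. The Sptlc2 sites are at chr12:87309768-87309774 and chr12:87309328-87309334 on the minus strand, the Smpd3 site at chr8:106254123-106254129 on the minus strand and the Cers4 site at chr8:4527841-4527847 on the plus strand of the same build, each downstream of the stop codon in the GENCODE vM21 transcript with the longest coding product. Sptlc2 and Smpd3 are shown as the 2 of 5 members called lower that hold the site in the 3′ UTR, and Cers4 as a member that did not pass the test in the fit without a block and did with the replicate number in the model. The site GTGGCCA, read on the mRNA strand, was found in the 3′ UTR of 8 of 39 members (20.5%), against 11.9% of the 15465 tested genes with an annotated 3′ UTR. It was in neither of the 2 members called higher and in 6 of 32 that were not called, Acer3 with 2 sites and Asah2, B4galt5, Cerk, Cers4 and Sgms2 with 1 each. Among all genes, 38.1% of those called lower and 6.1% of those called higher held it. The log2 fold changes of the 8 members with a site ran from −0.76 for Smpd3 to 0.42 for Sgms2, with 6 of 8 below 0, against 14 of the 31 members without a site. In coding sequence it occurred in 9 of 39 members (23.1%) and in 25.6% of all genes, and B4galnt1, Smpd3 and Sgpp2 were the called members among the 9. A match is a description of the letters, and its part in the changes below was not tested.

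Library depth ran from 17054717 to 23570180 counted reads, and mitochondrial genes took 2.75% to 3.79% of them. Pla2g4e, the targeted gene, had 38.0, 35.1 and 35.4 CPM (read counts relative to library size, after edgeR's TMM scaling) in shCtrl replicates 1 to 3 and 21.8, 14.2 and 18.7 CPM in shPla2g4e replicates 1 to 3, so that 50.5% was left (log2 fold change −0.99, SE 0.13, adjusted p = 1.24e-04, edgeR's quasi-likelihood test with Benjamini-Hochberg adjustment). The neuronal label was met by summed levels of 10 neuronal markers of 5711 to 6251 CPM in shCtrl and 5192 to 5659 CPM in shPla2g4e, and 10 astrocyte markers summed to 2978 to 3805 and 2051 to 3244 CPM. Of the neuronal markers Tubb3, Rbfox3 and Map2 fell and Nefl and Nefm rose, and of the astrocyte markers Aqp4, Slc1a2 and Gja1 fell. When 1 library was left out, the calls of Tubb3, Nefm and Aqp4 held in all 6 fits. Those of Map2 and Nefl held in 5, that of Gja1 in 4 and those of Rbfox3 and Slc1a2 in 1. The 11 oligodendrocyte-lineage markers summed to 572.5 to 648.6 and 591.1 to 724.6 CPM with none called, and none of the 8 microglial markers tested was called. Of 8 endothelial and mural markers, which summed to at most 26.45 CPM, Cldn5 and Kcnj8 were at 0, and of 6 progenitor markers, which summed to 94.55 to 118.7 and 79.39 to 116.0 CPM, only Top2a was called, lower. The call of Top2a held in 2 of the 6 fits that left out 1 library. In edgeR with the replicate block, calls were added for Gfap (adjusted p = 6.26e-12), Slc1a3 (0.00125), Aldoc (1.34e-04) and Sox9 (0.00297), lower, and S100b (9.63e-04), higher, among the astrocyte markers, Snap25 (higher, adjusted p = 3.53e-04) among the neuronal, Olig2 (lower, adjusted p = 5.28e-04) among the oligodendrocyte-lineage, C1qc (lower, adjusted p = 6.45e-04) among the microglial and Mki67 (lower, adjusted p = 1.51e-08) among the progenitor markers. The part of these cell types in the results below was not tested.

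Of the 39 sphingolipid genes, 7 passed an adjusted p of 0.01 in edgeR's quasi-likelihood test (17.9%), against 6.49% of all genes tested. The enzyme subunit that catalyses the first step of the pathway, the neutral sphingomyelinase of neurons, 1 of the 2 sphingosine kinases, glucosylceramide synthase and the enzyme that makes GM2 and GD2 were lower, namely Sptlc2, Smpd3, Sphk2, Ugcg and B4galnt1. The other sphingosine kinase and 1 of the 2 sphingosine 1-phosphate phosphatases, Sphk1 and Sgpp2, were higher. These are 5 of 39 lower (12.8%, background 4.0%) and 2 of 39 higher (5.13%, background 2.48%). Expressed genes are called more often, and among the 32 members whose log2 CPM averaged 3 or more there were 5 called (15.6%), beside 11.1% of the 10958 genes at that level. The CPM of the groups did not overlap for 20 of 39 members, 9 below and 11 above shCtrl (51.3%, background 30.0%). This background is over all genes tested and is not matched for level. The median log2 fold change of the members was −0.02, with 20 below 0 and 19 above, beside 0.03 for all genes.

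Libraries carry the numbers 1 to 3 in each group, and those with the same number deviated together. With the replicate number as a block, 12 of 39 members were called (30.8%), 8 lower and 4 higher, against 15.5% of all genes, a share not matched for level. The members added were Sptssa, Cers4 and S1pr1, lower, and Ormdl3 and Asah1, higher. The count also moved when 1 library was left out, to 4 without shCtrl replicate 1, 3 without shCtrl replicate 2, 3 without shPla2g4e replicate 1 and 4 without shPla2g4e replicate 2. Sptlc2, Smpd3 and Sgpp2 were called in each of these fits.

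**Figure D1:**
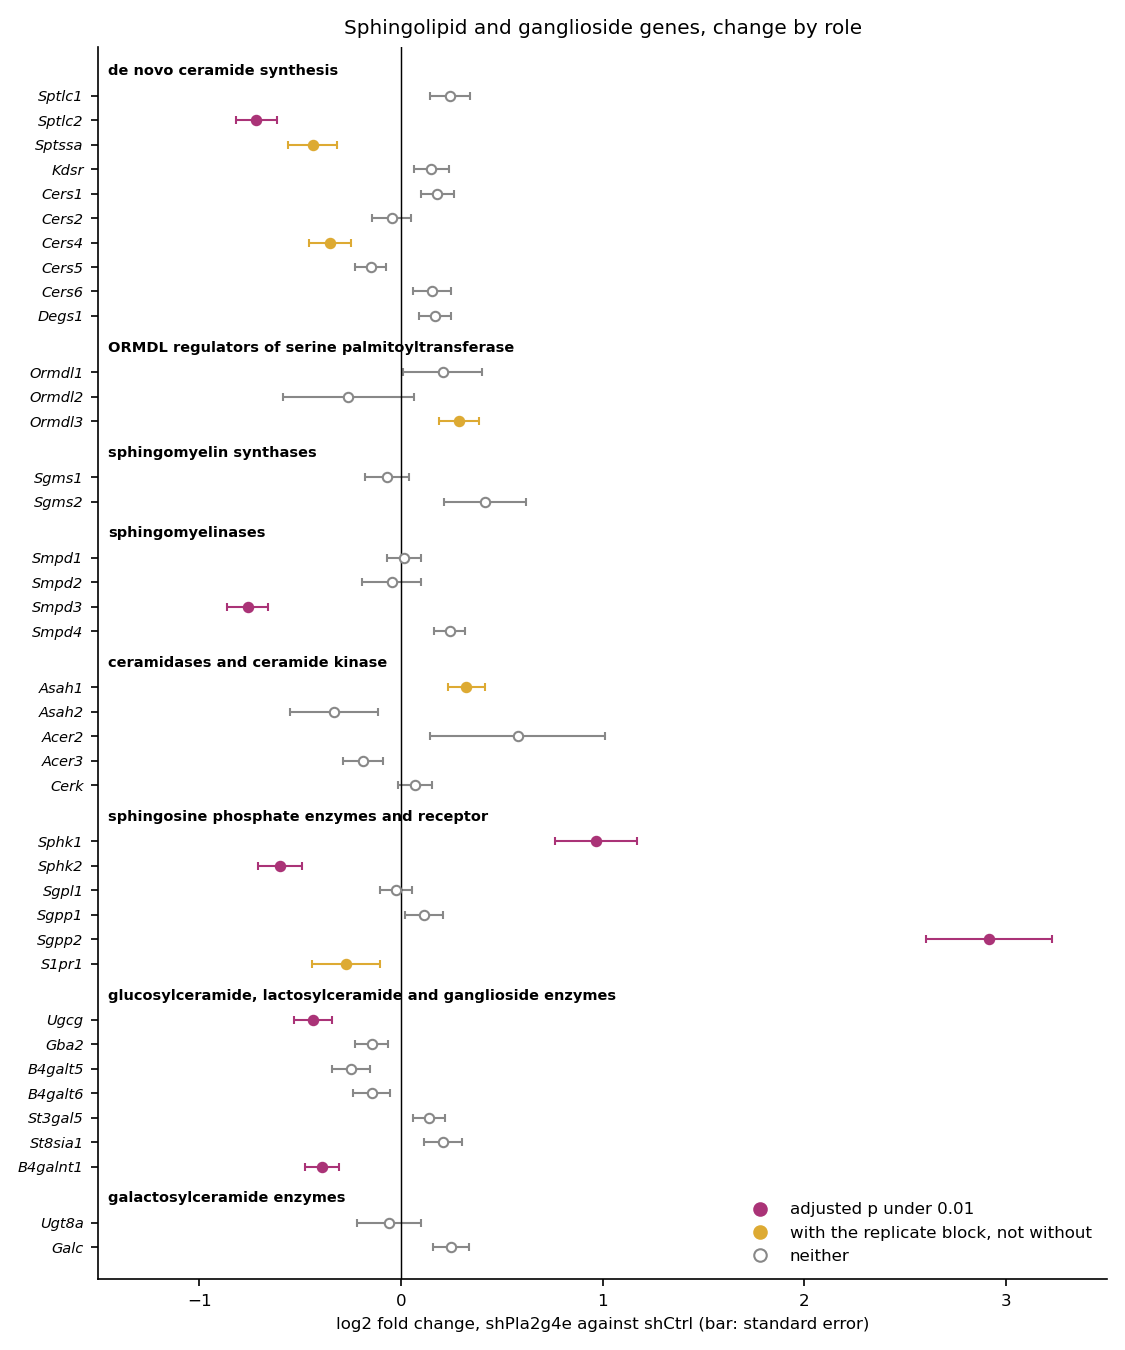
Log2 fold change of shPla2g4e against shCtrl for the 39 genes, grouped by role, with the standard error as a bar. Purple points passed an adjusted p of 0.01, yellow points passed with the replicate block but not without it, and open points neither; Sgpp2 stands at 2.91 and every other gene between −0.76 and 0.97.

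The de novo pathway has 10 genes here, and 1 was called. Sptlc2, the catalytic subunit of serine palmitoyltransferase (ENSMUSG00000021036, chromosome 12, 87351832 to 87435129, minus strand, GRCm39), had 35.9, 43.4 and 38.1 CPM in shCtrl and 25.5, 23.6 and 22.2 CPM in shPla2g4e. No shPla2g4e library reached a shCtrl library. Mean levels were 39.1 ± 3.87 and 23.8 ± 1.63 CPM (SD, n = 3), which left 60.9% (log2 fold change −0.72, SE 0.10, adjusted p = 2.34e-04, edgeR's quasi-likelihood test with Benjamini-Hochberg adjustment). The call held in all 6 fits that left out 1 library, with log2 fold changes from −0.78 to −0.64.

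The partner subunit Sptlc1 went the other way in level without passing the test. It had 30.4, 33.2 and 36.5 CPM in shCtrl and 38.9, 43.0 and 36.6 CPM in shPla2g4e (log2 fold change 0.24, adjusted p = 0.132, edgeR). The highest shCtrl and the lowest shPla2g4e library were almost level. The ratio of Sptlc2 to Sptlc1, each per kb of exon, was therefore 0.52, 0.57 and 0.46 in shCtrl and 0.29, 0.24 and 0.27 in shPla2g4e, with no overlap. Sptssa, the small subunit that stimulates the enzyme, had 19.9, 19.2 and 22.7 CPM in shCtrl and 15.2, 13.6 and 16.97 CPM in shPla2g4e, also apart. Its log2 fold change of −0.44 (SE 0.12) had an adjusted p of 0.0275 in edgeR's test and 0.00144 with the replicate block.

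The ORMDL proteins, which hold serine palmitoyltransferase in check, included no gene called in the fit without a block. Ormdl3 had by far the highest level of the 3 per kb (30.0 CPM per kb in shCtrl, against 1.26 for Ormdl1 and 1.07 for Ormdl2). It had 66.4, 63.5 and 66.7 CPM in shCtrl and 76.1, 93.6 and 70.3 CPM in shPla2g4e. All shPla2g4e values were above all shCtrl values, replicate 2 the most (log2 fold change 0.29, adjusted p = 0.0674 in edgeR's test and 0.00405 with the replicate block). Without shPla2g4e replicate 2 the log2 fold change was 0.16 (adjusted p = 0.32, edgeR). Ormdl1 and Ormdl2 were low, with log2 fold changes of 0.21 (SE 0.20) and −0.26 (SE 0.33). Of the exon bases of Ormdl2, 66.7% overlap Dnajc14 on the other strand, and reads on such bases were left out by the counting.

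Further along the same route, the reductase Kdsr and the desaturase Degs1 did not pass the test. Degs1, which introduces the double bond of ceramide and had the highest level per kb of the de novo genes (31.4 CPM per kb in shCtrl), had 80.2, 78.0 and 85.8 CPM in shCtrl and 88.1, 95.2 and 91.4 CPM in shPla2g4e. The groups were apart by a small margin (log2 fold change 0.17, adjusted p = 0.185, edgeR). Kdsr overlapped between groups at 0.15 on the log2 scale.

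The 5 ceramide synthases differ in the length of the acyl chain they attach, and their summed level was 72.5 ± 1.02 CPM per kb in shCtrl and 71.7 ± 0.65 in shPla2g4e (SD, n = 3), with overlapping groups. Within that sum the shares of Cers1, Cers4 and Cers5 were apart between the groups, and those of Cers2 and Cers6 overlapped. As parts of a sum the shares depend on each other. Over all genes tested, the CPM of the groups did not overlap for 30.0%. Cers4 had 109.7, 111.9 and 119.6 CPM in shCtrl and 92.4, 73.1 and 102.2 CPM in shPla2g4e, each lower than every shCtrl library (log2 fold change −0.35, SE 0.10). Its adjusted p was 0.0361 in edgeR's test, 5.63e-05 with the replicate block and 0.00435 without shPla2g4e replicate 3, the highest library of its group. It passed in none of the fits without 1 of the other 5 libraries, and without shPla2g4e replicate 2, the lowest, the log2 fold change was −0.23 (adjusted p = 0.148, edgeR). Within each group the libraries had the same order for Cers4 as for the summed astrocyte markers, whose part in the values of Cers4 was not tested. Its share of the 5 was 12.8 ± 0.72% in shCtrl and 10.2 ± 1.77% in shPla2g4e. Cers1, the synthase of neurons that makes C18 ceramide, took 23.5 ± 1.44% in shCtrl and 27.0 ± 0.41% in shPla2g4e, and Cers5 took 31.2 ± 0.63% and 28.5 ± 1.37%. The CPM of Cers1 gave a log2 fold change of 0.18 (adjusted p = 0.183, edgeR), and 42.5% of its exon bases are shared with Gdf1 on the same strand, so that its level is uncertain. Cers2, Cers5 and Cers6 had log2 fold changes of −0.05, −0.15 and 0.15 and were not called.

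**Figure D2:**
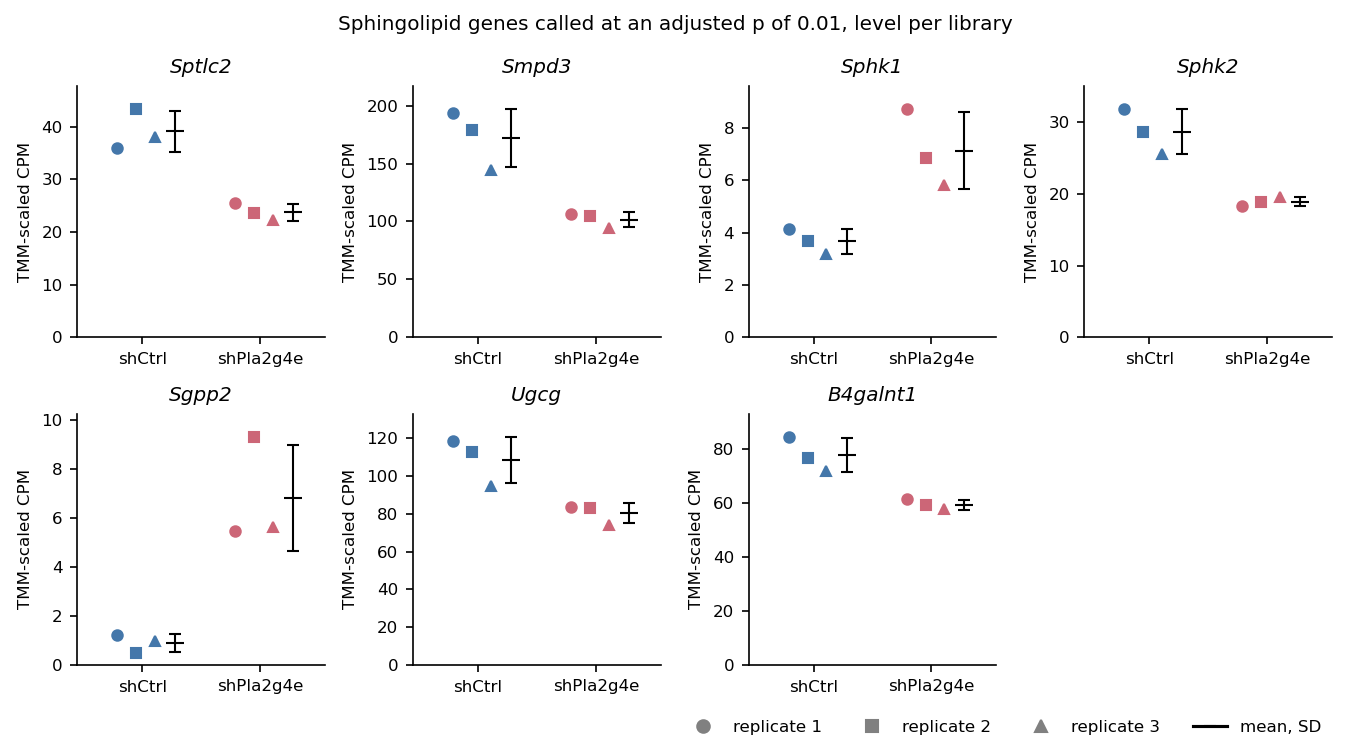
TMM-scaled CPM of the 7 called genes in each of the 6 libraries, on linear axes from 0, with the mean and SD of 3 libraries as black bars. In each panel the shCtrl and shPla2g4e libraries do not overlap; Sptlc2, Smpd3, Sphk2, Ugcg and B4galnt1 are lower and Sphk1 and Sgpp2 higher in shPla2g4e.

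Among the genes of sphingomyelin turnover, Smpd3, which encodes the neutral sphingomyelinase most abundant in brain (ENSMUSG00000031906, chromosome 8, 106979180 to 107064620, minus strand, GRCm39), fell. It had 193.3, 178.7 and 144.4 CPM in shCtrl and 106.1, 104.7 and 94.0 CPM in shPla2g4e. The lowest shCtrl library stood well above the highest shPla2g4e library. Mean levels were 172 ± 25.1 and 102 ± 6.63 CPM (SD, n = 3), and 59.1% was left (log2 fold change −0.76, SE 0.10, adjusted p = 1.19e-04, edgeR's quasi-likelihood test with Benjamini-Hochberg adjustment). The call held without any 1 of the 6 libraries, at −0.87 to −0.67. A small part of its exon bases, 4.7%, overlaps Prmt7 on the other strand.

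The 3 other sphingomyelinases were not called. Smpd1, the acid sphingomyelinase of lysosomes and the highest of the 4 per kb (37.7 CPM per kb in shCtrl), had 137.6, 125.5 and 113.9 CPM in shCtrl and 123.3, 134.8 and 122.7 CPM in shPla2g4e. The groups overlapped fully, with a log2 fold change of 0.01 (SE 0.09). Smpd4 had 62.1, 62.2 and 58.9 CPM in shCtrl and 71.2, 73.7 and 71.8 CPM in shPla2g4e. These groups were apart with little spread, but the change of 0.24 on the log2 scale (SE 0.08) had an adjusted p of 0.0503 in edgeR's test and 0.0103 with the replicate block. Smpd2 was at −0.05 (SE 0.15), and 20.3% of its exon bases overlap Mical1. Smpd3 thus made up 42.1%, 41.8% and 38.4% of the summed sphingomyelinase level per kb in shCtrl and 29.9%, 28.0% and 27.1% in shPla2g4e. The sum itself was 80.4 ± 8.08 CPM per kb in shCtrl and 68.5 ± 2.60 in shPla2g4e.

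The 2 sphingomyelin synthases, which run the opposite step, were not called. Sgms1, the Golgi enzyme and the higher of the pair per kb, had 20.9, 25.0 and 23.6 CPM in shCtrl and 21.0, 23.1 and 22.1 CPM in shPla2g4e, within the same range. Sgms2, found at the plasma membrane, had 3.78, 3.93 and 3.51 CPM in shCtrl and 4.18, 5.83 and 4.97 CPM in shPla2g4e. Its groups were apart, but its log2 fold change of 0.42 (SE 0.20) had an adjusted p of 0.217 in edgeR's test.

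None of the 4 ceramidases or the ceramide kinase Cerk was called in the fit without a block. Asah1, the lysosomal acid ceramidase and the highest of these per kb (15.3 CPM per kb in shCtrl), had 48.3, 51.5 and 56.2 CPM in shCtrl and 60.9, 62.8 and 71.8 CPM in shPla2g4e. Every shPla2g4e library was above every shCtrl library. The log2 fold change of 0.32 (SE 0.09) had an adjusted p of 0.0278 in edgeR's test and 6.39e-04 with the replicate block. Acer3, an alkaline ceramidase, was at −0.19 (SE 0.10) and Asah2, the neutral ceramidase, at −0.33 (SE 0.22). Acer2 had 10 to 39 reads in a library, too few to place its 0.58 (SE 0.43). Cerk was at 0.07 (SE 0.09), and these 4 genes overlapped between groups.

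The sphingosine 1-phosphate genes held 3 of the 7 calls among 6 members, beside 6.49% of all genes tested. Of the 4 whose log2 CPM averaged 3 or more, 1 was called, beside 11.1% of all genes at that level. The 2 sphingosine kinases were called in opposite directions. Both make the same product, Sphk1 mainly in the cytosol and Sphk2 mainly in the nucleus and organelles. Sphk1 (ENSMUSG00000061878, chromosome 11, 116421751 to 116427501, plus strand, GRCm39) had 4.12, 3.67 and 3.20 CPM in shCtrl and 8.74, 6.84 and 5.83 CPM in shPla2g4e, from 72 to 209 reads. All 3 shPla2g4e libraries were above all 3 shCtrl libraries. Mean levels were 3.67 ± 0.46 and 7.14 ± 1.48 CPM (SD, n = 3), a 1.96-fold rise (log2 fold change 0.97, SE 0.20, adjusted p = 0.00482, edgeR's quasi-likelihood test with Benjamini-Hochberg adjustment). This call was lost without shCtrl replicate 2 (adjusted p = 0.0236), shCtrl replicate 3 (0.0221), shPla2g4e replicate 1 (0.0366) or shPla2g4e replicate 2 (0.0111), with log2 fold changes from 0.79 to 1.09 over the 6 fits of edgeR.

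Sphk2 (ENSMUSG00000057342, chromosome 7, 45358891 to 45367426, minus strand, GRCm39) had 31.9, 28.6 and 25.6 CPM in shCtrl and 18.3, 18.9 and 19.5 CPM in shPla2g4e. The 3 shPla2g4e libraries lay close together below the lowest shCtrl library. Mean levels were 28.7 ± 3.15 and 18.9 ± 0.61 CPM (SD, n = 3), and 66.0% was left (log2 fold change −0.60, SE 0.11, adjusted p = 0.00166, edgeR's quasi-likelihood test with Benjamini-Hochberg adjustment). It missed 0.01 without shCtrl replicate 1 (adjusted p = 0.0125), shCtrl replicate 2 (0.0109) or shPla2g4e replicate 1 (0.011) in edgeR's test. Of its exon bases 21.9% overlap Dbp or Rpl18 on the other strand, and reads there were left out. Sphk1 made up 10.1%, 10.1% and 9.82% of the 2 kinases per kb in shCtrl and 29.4%, 23.96% and 20.6% in shPla2g4e. Sphk2 was still the higher of the pair in each library, and the summed level was 7.66 ± 0.85 CPM per kb in shCtrl and 6.05 ± 0.17 in shPla2g4e, with no overlap.

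The phosphatases Sgpp1 and Sgpp2 turn sphingosine 1-phosphate back into sphingosine in the endoplasmic reticulum. Sgpp2 (ENSMUSG00000032908, chromosome 1, 78286982 to 78396926, plus strand, GRCm39) had the largest fold change of the 39 genes. It had 1.21, 0.50 and 0.98 CPM in shCtrl, from 25, 10 and 22 reads, and 5.48, 9.34 and 5.66 CPM in shPla2g4e, from 131, 202 and 99 reads. The groups were far apart, with shPla2g4e replicate 2 the highest. The means were 0.90 ± 0.36 and 6.83 ± 2.18 CPM (SD, n = 3), a 7.53-fold rise (log2 fold change 2.91, SE 0.31, adjusted p = 1.66e-05, edgeR's quasi-likelihood test with Benjamini-Hochberg adjustment). It was called without any 1 library, at 2.62 to 3.18. Sgpp1 had 38.1, 32.9 and 36.2 CPM in shCtrl and 36.4, 40.7 and 38.96 CPM in shPla2g4e, in overlapping ranges (log2 fold change 0.11, SE 0.09). Sgpp2 therefore went from 4.30%, 2.12% and 3.67% of the pair per kb to 17.5%, 24.5% and 17.01%, and Sgpp1 still made up most of it.

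Sgpl1, the lyase that breaks down sphingosine 1-phosphate for good, had 85.9, 77.6 and 87.2 CPM in shCtrl and 79.6, 82.8 and 84.6 CPM in shPla2g4e. The ranges overlapped, with a log2 fold change of −0.02 (SE 0.08) that turned to 0.05 with scaling by library size alone.

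S1pr1, a receptor of sphingosine 1-phosphate and the highest of the 6 per kb (23.7 CPM per kb in shCtrl), had 61.2, 76.0 and 79.4 CPM in shCtrl and 45.7, 50.7 and 83.8 CPM in shPla2g4e. The groups overlapped, since shPla2g4e replicate 3 was the highest of all 6 libraries. The log2 fold change of −0.27 (SE 0.17) had an adjusted p of 0.344 in edgeR's test, 0.00327 with the replicate block, where it was −0.30, and 0.00103 without shPla2g4e replicate 3, where it was −0.58. It shrank to −0.11 (adjusted p = 0.776, edgeR) without shPla2g4e replicate 1 and to −0.17 (0.657) without shPla2g4e replicate 2. Astrocytes express S1pr1, and the 10 astrocyte markers summed to 2978, 3354 and 3805 CPM in shCtrl and 2208, 2051 and 3244 CPM in shPla2g4e, with the same library, shPla2g4e replicate 3, highest of its group. With the replicate block, 7 of these 10 markers were called lower and 1 higher. The part of the astrocyte markers in the values of S1pr1 was not tested.

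**Figure D3:**
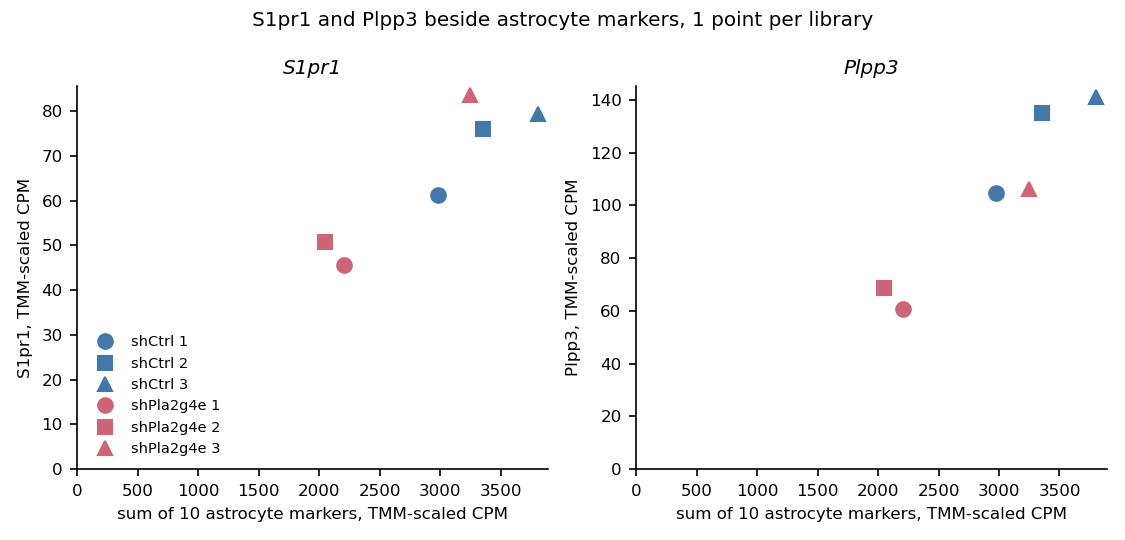
TMM-scaled CPM of S1pr1 and of Plpp3, a lipid phosphate phosphatase, against the summed TMM-scaled CPM of 10 astrocyte markers, with 1 point per library, colour for the group and shape for the replicate. The shPla2g4e replicates 1 and 2 are lowest on all axes, and shPla2g4e replicate 3 is the highest of all 6 for S1pr1 and within the shCtrl range for Plpp3 and for the astrocyte markers.

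The branch that leads to gangliosides has 7 genes here, of which 2 were called, both lower, and 5 had log2 fold changes below 0. Over all genes tested, 4.0% were called lower and 10162 of 21876 were below 0. All 7 had a log2 CPM that averaged 3 or more, and 11.1% of all genes at that level were called. Ugcg, glucosylceramide synthase, the entry to this branch (ENSMUSG00000028381, chromosome 4, 59189257 to 59222833, plus strand, GRCm39), had 118.4, 112.5 and 94.9 CPM in shCtrl and 83.5, 83.2 and 74.2 CPM in shPla2g4e. Every shPla2g4e library was below every shCtrl library. Mean levels were 109 ± 12.2 and 80.3 ± 5.30 CPM (SD, n = 3), and 74.0% was left (log2 fold change −0.43, SE 0.09, adjusted p = 0.00523, edgeR's quasi-likelihood test with Benjamini-Hochberg adjustment). The call held in edgeR only without shCtrl replicate 3 and was lost without shCtrl replicate 1 (adjusted p = 0.0275), shCtrl replicate 2 (0.0384), shPla2g4e replicate 1 (0.0161), shPla2g4e replicate 2 (0.0107) or shPla2g4e replicate 3 (0.0139), and with library size alone (0.0114). The log2 fold change stayed between −0.52 and −0.37 when 1 library was left out.

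Gba2, the glucosylceramidase outside lysosomes, had 83.0, 73.1 and 73.0 CPM in shCtrl and 70.7, 66.8 and 69.6 CPM in shPla2g4e. Its groups were just apart (log2 fold change −0.15, SE 0.08, adjusted p = 0.295, edgeR). The ratio of Ugcg to Gba2 per kb was 1.23, 1.32 and 1.12 in shCtrl and 1.01, 1.07 and 0.92 in shPla2g4e, without overlap.

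The lactosylceramide synthases B4galt5 and B4galt6 had log2 fold changes of −0.25 (SE 0.09, adjusted p = 0.102, edgeR) and −0.15 (SE 0.09). B4galt6, the member with the highest level per kb of this branch (37.2 CPM per kb in shCtrl), had 235.9, 218.1 and 194.2 CPM in shCtrl and 208.5, 201.7 and 175.6 CPM in shPla2g4e. In both genes the ranges overlapped. St3gal5, which adds the first sialic acid and makes GM3, had 99.3, 93.3 and 87.2 CPM in shCtrl and 106.5, 100.1 and 101.2 CPM in shPla2g4e, apart by less than 1 CPM and not called (0.14, SE 0.08).

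The 2 enzymes that compete for GM3 had values on opposite sides of 0, and B4galnt1 alone was called. B4galnt1, which makes GM2 and GD2 and opens the way to the major brain gangliosides (ENSMUSG00000006731, chromosome 10, 127001094 to 127008199, plus strand, GRCm39), had 84.5, 76.8 and 71.9 CPM in shCtrl and 61.3, 59.2 and 57.5 CPM in shPla2g4e. The shPla2g4e libraries were all below the shCtrl libraries. Mean levels were 77.7 ± 6.37 and 59.3 ± 1.88 CPM (SD, n = 3), and 76.4% was left (log2 fold change −0.39, SE 0.08, adjusted p = 0.00585, edgeR's quasi-likelihood test with Benjamini-Hochberg adjustment). The call held in edgeR without shCtrl replicate 3 and was lost without shCtrl replicate 1 (adjusted p = 0.0319), shCtrl replicate 2 (0.0285), shPla2g4e replicate 1 (0.0197), shPla2g4e replicate 2 (0.0181) or shPla2g4e replicate 3 (0.0132), and with library size alone (0.0152). The values stayed between −0.44 and −0.32 when 1 library was left out, and 20.7% of the exon bases of B4galnt1 overlap Slc26a10 on the other strand.

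St8sia1, which turns GM3 into GD3, had 51.2, 45.7 and 42.5 CPM in shCtrl and 52.1, 58.0 and 50.9 CPM in shPla2g4e. These ranges overlapped by a single library, and the change was not called (0.21, SE 0.09, adjusted p = 0.169, edgeR). The ratio of B4galnt1 to St8sia1 per kb was 4.46, 4.55 and 4.57 in shCtrl and 3.18, 2.76 and 3.06 in shPla2g4e. The groups were apart, with the 3 shCtrl values close together.

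**Figure D4:**
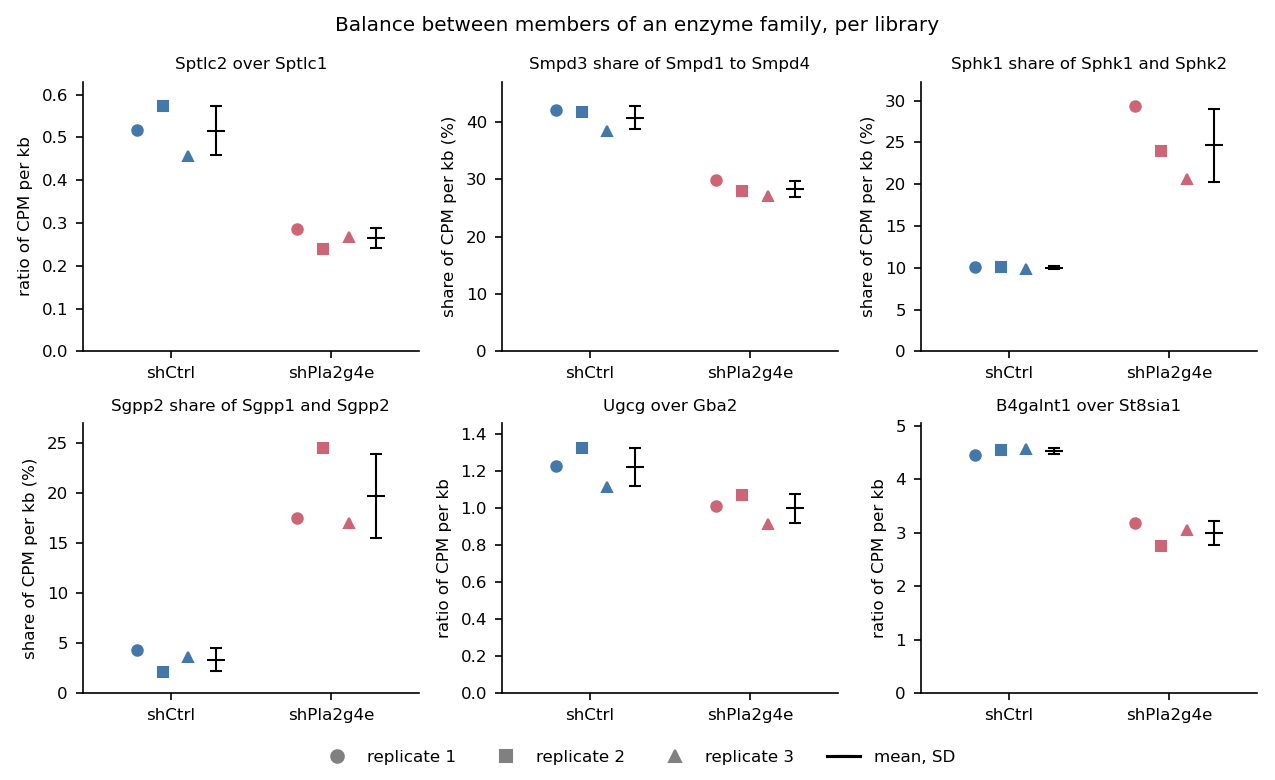
Balance within enzyme families or between paired enzymes in each library, as ratios or percent shares of CPM per kb of exon, on axes from 0, with the mean and SD of 3 libraries as black bars. Each ratio or share has a called gene as its numerator, whose own groups did not overlap. The Sptlc2 to Sptlc1, Ugcg to Gba2 and B4galnt1 to St8sia1 ratios and the Smpd3 share are lower and the Sphk1 and Sgpp2 shares higher in shPla2g4e, without overlap.

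Neither of the 2 galactosylceramide genes was called. Galc, the lysosomal galactosylceramidase, had 41.8, 41.0 and 46.1 CPM in shCtrl and 47.8, 54.2 and 51.1 CPM in shPla2g4e. Its groups were apart (log2 fold change 0.25, SE 0.09), with an adjusted p of 0.0822 in edgeR's test and 0.0197 with the replicate block. Ugt8a, the synthase of oligodendrocytes, had 12.9, 13.1 and 14.7 CPM in shCtrl and 10.8, 16.6 and 11.7 CPM in shPla2g4e, with the shCtrl range inside that of shPla2g4e.

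Of 51 other genes of the pathway, listed for their function, 47 were tested and 9 were called (19.1%), 5 lower and 4 higher, beside the same background of 6.49%. Of the 31 whose log2 CPM averaged 3 or more, 8 were called (25.8%), beside 11.1% of all genes at that level. The CPM of the groups did not overlap for 15 of 47 (31.9%), beside 30.0% of all genes tested. Sptlc3, Acer1, S1pr4 and Enpp7 had too few reads to be tested. With the replicate block 14 were called (29.8%), 8 lower and 6 higher, beside 15.5% of all genes. The genes added in edgeR's test were Col4a3bp (adjusted p from 0.012 to 4.11e-04), St6galnac5 (0.0299 to 0.00141) and Mfsd2a (0.181 to 0.00557), which were lower, and Neu1 (0.0268 to 0.00353) and Fa2h (0.0611 to 0.00209), which were higher. Fa2h, a fatty acid 2-hydroxylase, had 1.504, 2.265 and 1.865 CPM in shCtrl and 3.51, 7.40 and 1.71 CPM in shPla2g4e, so that the groups overlapped. Its log2 fold change went from 1.17 to 0.50 (adjusted p = 0.459, edgeR) without shPla2g4e replicate 2, the library with the highest sum of oligodendrocyte-lineage markers (724.6 CPM), whose part in Fa2h was not tested, and to 1.53 (adjusted p = 0.00159) without shPla2g4e replicate 3. The groups also overlapped for Mfsd2a, whose log2 fold change of −0.33 was −0.19 without shPla2g4e replicate 1 (adjusted p = 0.538, edgeR) or shCtrl replicate 3 and −0.54 without shPla2g4e replicate 3 (adjusted p = 0.0102). Without 1 library the count was 5 without shCtrl replicate 1, 3 without shCtrl replicate 2, 6 without shCtrl replicate 3 and 5 without shPla2g4e replicate 2.

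Of the 9 sialyltransferases tested among these genes, which finish gangliosides and other sialylated glycans, 3 were called lower and 1 higher. Over all genes tested, 4.0% were called lower and 2.48% higher. The members St3gal5 and St8sia1, also sialyltransferases, were above 0 at 0.14 and 0.21 and were not called. St3gal2, St8sia3, St6galnac3, St6galnac4 and St6galnac5 were not called, and St6galnac5 (log2 fold change −0.29) was called lower with the replicate block. St6galnac6, which makes alpha-series gangliosides, had 101.3, 91.6 and 94.4 CPM in shCtrl and 61.4, 49.9 and 59.3 CPM in shPla2g4e, far apart (log2 fold change −0.75, SE 0.09, adjusted p = 5.00e-05, edgeR). St3gal3 had 41.6, 38.1 and 36.0 CPM in shCtrl and 24.2, 27.2 and 25.3 CPM in shPla2g4e, also apart (−0.59, SE 0.10, adjusted p = 7.17e-04, edgeR). Both were called in each fit that left out 1 library. St3gal1 had 59.0, 56.3 and 55.8 CPM in shCtrl and 46.2, 43.1 and 39.1 CPM in shPla2g4e (−0.41, SE 0.09, adjusted p = 0.00506, edgeR). Its groups were apart, but the call held only without shPla2g4e replicate 1 and was lost at adjusted p values of 0.0105 to 0.0246 without each of the other 5 libraries and at 0.016 with library size alone in edgeR. St8sia5, a sialyltransferase of the more highly sialylated gangliosides, had 36.9, 31.8 and 32.2 CPM in shCtrl and 50.2, 51.1 and 52.2 CPM in shPla2g4e. These groups were apart and the call held without any 1 library (0.60, SE 0.09, adjusted p = 3.01e-04, edgeR). The GTGGCCA site was in the 3′ UTR of 9 of the 46 other pathway genes with an annotated one (19.6%), 3 of 5 called lower (St3gal1, St3gal3 and Glb1), 1 of 4 called higher (St8sia5) and 5 of 37 not called, Fa2h among them. St6galnac6 holds none.

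The lysosomal enzymes that trim gangliosides and globosides moved both ways. Glb1, the beta-galactosidase that acts on GM1, had 35.6, 35.2 and 27.1 CPM in shCtrl and 20.0, 25.2 and 20.8 CPM in shPla2g4e. The groups were narrowly apart (log2 fold change −0.57, SE 0.13, adjusted p = 0.00653, edgeR), and the call was lost without shCtrl replicate 1 (0.0353), shCtrl replicate 2 (0.0472), shPla2g4e replicate 1 (0.0388) or shPla2g4e replicate 3 (0.0105), with library size alone (0.0164) and with at least 10 reads in every library (0.0105). Its short 3′ UTR holds the GTGGCCA site at 2 places. Hexa, the alpha subunit of the hexosaminidase that acts on GM2, had 66.1, 65.6 and 70.2 CPM in shCtrl and 89.9, 96.3 and 91.0 CPM in shPla2g4e. All of the latter were higher (0.46, SE 0.08, adjusted p = 9.69e-04, edgeR), and the call was lost without shCtrl replicate 2 alone (adjusted p = 0.0121). Gla, the alpha-galactosidase of globosides, had 16.0, 18.2 and 18.7 CPM in shCtrl and 26.1, 29.1 and 24.5 CPM in shPla2g4e. It was higher in each library (0.60, SE 0.11, adjusted p = 0.00209, edgeR) and missed 0.01 without shCtrl replicate 1 (0.0134), shCtrl replicate 2 (0.0111) or shPla2g4e replicate 2 (0.0113). Psap, the precursor of the saposins, was at 1169 to 1364 CPM and was not called (−0.09).

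The last 2 calls were Smpdl3b and Plpp3. Smpdl3b, a sphingomyelinase-like phosphodiesterase, had 1.70, 3.32 and 2.98 CPM in shCtrl and 5.31, 10.96 and 5.03 CPM in shPla2g4e. The groups were apart, with shPla2g4e replicate 2 far above the rest (log2 fold change 1.41, SE 0.31, adjusted p = 0.00581, edgeR). Without that library it was 0.96 (adjusted p = 0.0398), and it missed 0.01 also without shCtrl replicate 1 (0.0281), 2 (0.0134) or 3 (0.0159) in limma after voom (0.0117) and with at least 10 reads in every library (0.0103). Plpp3, which dephosphorylates sphingosine 1-phosphate and other lipid phosphates, had 104.7, 135.1 and 141.3 CPM in shCtrl and 60.8, 68.6 and 106.1 CPM in shPla2g4e. The groups overlapped by shPla2g4e replicate 3, the library of its group with the most astrocyte marker reads (log2 fold change −0.70, SE 0.16, adjusted p = 0.00827, edgeR). The part of the astrocyte markers in its values was not tested. It missed 0.01 without shCtrl replicate 2 (0.0482), shCtrl replicate 3 (0.0388), shPla2g4e replicate 1 (0.0453) or shPla2g4e replicate 2 (0.0353), in DESeq2 (0.0662) and the robust fit (0.169), and with library size alone (0.0195), upper-quartile scaling (0.013), filterByExpr (0.0148) or at least 10 reads in every library (0.0167).

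**Figure D5:**
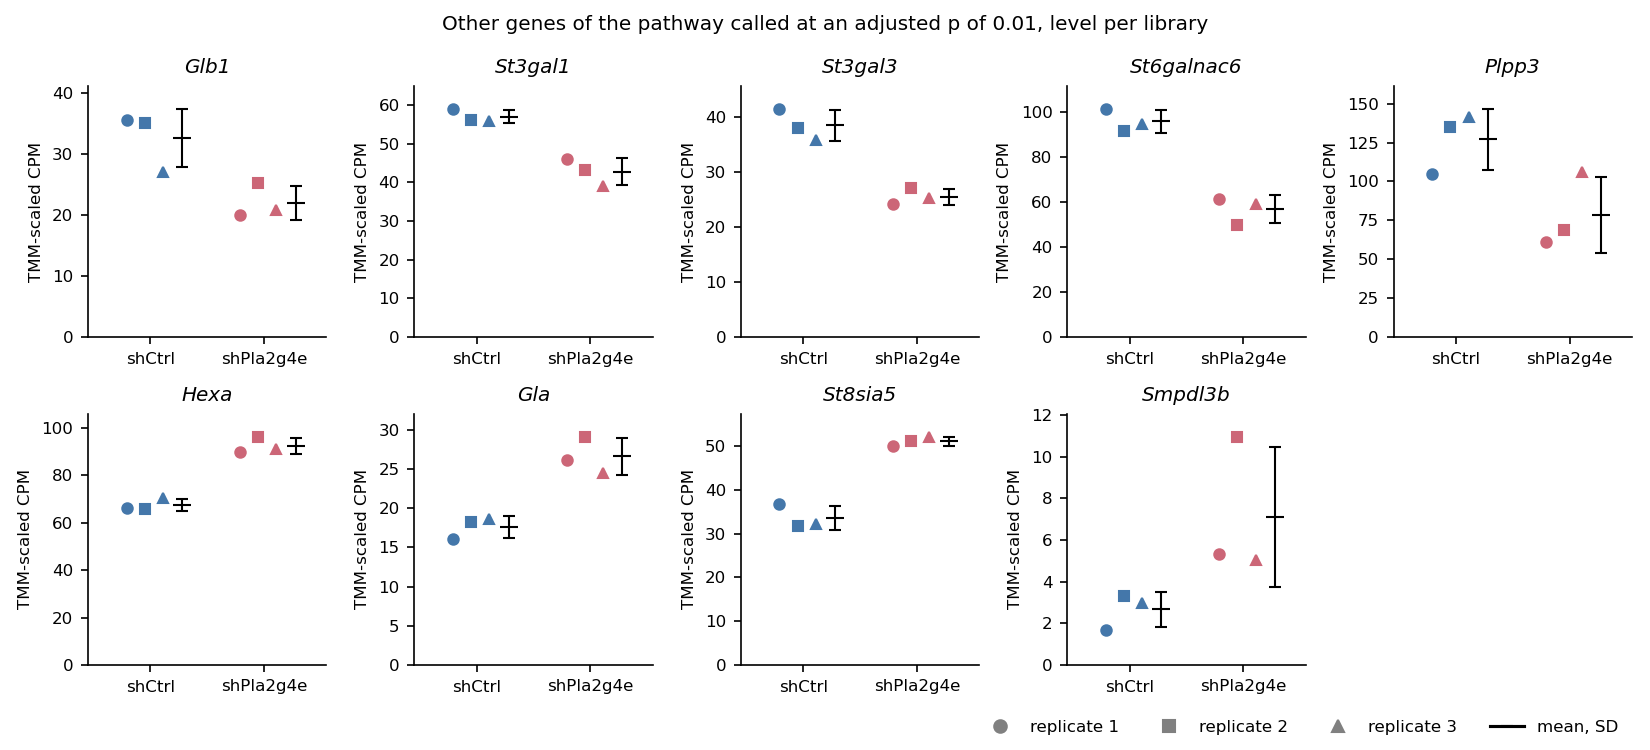
TMM-scaled CPM of the 9 other pathway genes called, in each of the 6 libraries, on linear axes from 0, with the mean and SD of 3 libraries as black bars. Glb1, St3gal1, St3gal3, St6galnac6 and Plpp3 are lower and Hexa, Gla, St8sia5 and Smpdl3b higher in shPla2g4e; the groups overlap in Plpp3 alone.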

How the data were processed

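The authors aligned the reads of 6 poly(A) libraries with STAR 2.7.0d, assigned them to the exons of genes with featureCounts 1.6.0 and deposited raw read counts, 1 file per library, with no normalization. The file headers name GENCODE vM28 and GRCm39, as do the submitters' processing notes for the build, whereas the methods name mm10 and GENCODE M18. The headers show no strand option, although the kit was stranded, so that reads from both strands were counted. By the tool's defaults, reads with several alignments, or on exons that overlapping genes share, were not counted.

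Symbols came from GENCODE vM21 through the gene identifiers (52081 of 55357 matched), and so did 3′ UTRs, coding sequences and sequence coordinates, in GRCm38. Gene coordinates and exon overlaps are those of the files, in GRCm39. The 3276 unmatched genes, with 0.286% to 0.387% of a library's reads, were kept in the tests. Depth was 17054717 to 23570180 counts, at which a gene with 10 reads is known only roughly. No pair of libraries agreed within sampling noise (chi-square per gene 5.65 to 14.0 within groups and 17.3 to 34.1 between).

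Genes that reached 6 reads in 1 or more libraries were compared with edgeR 4.0.16 (TMM, quasi-likelihood test, two-sided, Benjamini-Hochberg adjustment over all 21876 genes) in R 4.3.3, at a threshold of 0.01. The filter is that of the study's methods, and the threshold is the one stated in its results. The methods used limma after voom, which was run as an alternative (limma 3.58.1), as were DESeq2 1.42.0, other scalings and filters, the robust fit, a threshold of 0.05, the replicate block and leaving out each library. The standard error of a log2 fold change was derived from its F statistic. CPM are counts scaled with the TMM factors, and CPM per kb divides them by the exon length in the files. Shares and ratios between genes are descriptions with no test.

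The comparison as reported has no replicate term, and a fit with the replicate number as a block was an alternative. The numbers pair the libraries by their deviations. Over 10908 genes, each library's deviation from its group mean had correlations of 0.392, 0.189 and 0.461 with the same-numbered library and of −0.393 to 0.108 with the others. Blocked values stand beside the calls they change among the 39 genes, the other pathway genes and the markers.

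The genes, the lists of other pathway genes and markers, and the ratios were chosen with earlier results of these data known. All 39 genes are accounted for, and values per library are given for every gene called and, in each role, for the gene with the smallest p and the highest level per kb. Other pathway genes are named where called, and a few more were named after their values were seen. A summed level of microglial markers is not reported here.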

Additional observations from a re-analysis of the deposited data

How the results depend on the processing

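Over the 7 called genes, 100 of 119 values under the alternatives kept their direction and their side of the threshold, 19 kept the direction and missed the threshold, and 0 changed sign. The threshold of 0.05 is counted among these alternatives. It was applied to the reported fit, so that its 7 values could not move. Sptlc2, Smpd3 and Sgpp2 were called under every alternative run. DESeq2, DESeq2's size factors, limma after voom, the robust fit, upper-quartile scaling, filterByExpr and at least 10 reads in every library called the same 7, while library size alone called 5 (3 lower), without B4galnt1 and Ugcg, no filter called 9, with Asah1 and Cers4 added, and a threshold of 0.05 gave 10.

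With the replicate block, 12 members, 14 other pathway genes and 3395 of all genes were called, and it took no call from the 7. Leaving out 1 library gave 3 to 7 members, 3 to 9 other pathway genes and 695 to 1613 of all genes. For all genes, no filter gave 2349 and a threshold of 0.05 gave 2813, against 1419. The share of calls that were lower was 61.7% with TMM, 43.3% with library size alone and 53.2% with upper-quartile scaling over all genes, 71.4% and 60.0% with library size alone over the members, and 55.6% and 28.6% over the other pathway genes.

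Values of uncalled genes close to 0 changed sign. With library size alone Cers2 was at 0.028, Sgms1 at 0.0035, Smpd2 at 0.0264, Sgpl1 at 0.0516 and Ugt8a at 0.0152, and with upper-quartile scaling Sgpl1 was at 0.0125. When 1 library was left out, Cers2 ranged from −0.0853 to 0.0263, Smpd1 from −0.0518 to 0.085, Smpd2 from −0.1921 to 0.0556, Sgpl1 from −0.0731 to 0.0089 and Ugt8a from −0.2775 to 0.0655. The cause of these changes was not tested. At this depth Acer2 and Ormdl2, with 10 to 44 reads in a library, could not be placed within 0.3 on the log2 scale. The comparison rests on 1 hairpin against 1 control hairpin, and changes from lower Pla2g4e and from other effects of the hairpin cannot be told apart.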
